A study of Mus musculus with 28 samples.

Results

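Molecular chaperones and their co-chaperones were followed through the ribosome-bound mRNA of mouse retinal ganglion cell (RGC) axons. The genes were taken by symbol: the Hsp70, Hsp90 and small heat shock protein genes, the chaperonin genes (Hspd1, Hspe1, Tcp1 and the Cct genes), all J protein genes (Dnaj), and Ptges3, Stip1, Bag1 and Bag6. The rule found 88 of the 23995 genes listed. They were made up of 14 Hsp70 genes, 3 Hsp90 genes, 7 small heat shock protein genes, the 2 genes of the mitochondrial chaperonin, 10 genes of the cytosolic chaperonin CCT, 45 J protein genes and 7 others, which the patterns took in along with the named co-chaperones (Hspb11, Hspbp1 and Hspbap1). The rule used symbols and no measured value.

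In axon-TRAP, RPL22 of the large ribosomal subunit is tagged with hemagglutinin once Cre has acted on the RiboTag allele, and tagged ribosomes are immunopurified with their mRNA. Every C57BL/6 mouse carried the RiboTag allele, and Pax6-alpha-Cre, which is active for a time in progenitors of the peripheral retina, was present in the Cre-positive animals alone. The superior colliculus (SC) holds the axon terminals of RGCs, so that Cre-positive SC gave the axonal fraction, Cre-negative SC of littermates gave the background of the immunopurification, and Cre-positive retina gave the cell bodies of RGCs together with the other descendants of the labelled progenitors. Each of these 3 tissues was sequenced at E17.5, P0.5, P7.5 and in the adult, in 2 replicates of pooled tissue (24 libraries), and 4 further adult libraries, without replicates, came from SC and retina with and without ribosome run-off.

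Chaperones bind unfolded or partly folded proteins and let them fold without clumping. Hsp70 holds short stretches of a chain, J proteins bring clients to Hsp70 and stimulate its ATPase, and Hsp90 acts later on clients such as kinases and receptors, with p23 (Ptges3) closing its cycle and Stip1 handing clients over from Hsp70. CCT is a double ring that folds actin and tubulin, which are the main building material of a growing axon, and Hspd1 and Hspe1 form the chamber and the lid of the chaperonin of mitochondria.

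FPKM values scale fragments to transcript length and library size. They do not correct for PCR amplification that differs between genes, so levels of different genes are set side by side only as listed. The libraries did not give their depth. Estimated from the smallest FPKM steps, it ran from 419824 to 13881152 fragments, with E17.5 Cre-negative SC replicate 1 the lowest, and 3 fragments on a transcript of 2 kb would be 0.108 to 3.57 FPKM. Between 1162 and 8769 genes were above 0. P0.5 Cre-positive SC had 4620 and 4923 genes above 0 and P0.5 Cre-negative SC 2162 and 2546, although the estimated depth was not lower in the Cre-negative pair (6303963 and 11799030 fragments against 5586928 and 8110175). Some genes that cells use everywhere are also listed at 0, so a gene at 0 is described here only as listed at 0. Of the RGC markers, Pou4f1 stood above 27 FPKM in 23 of the 24 libraries, the Cre-negative SC included, where it reached 2060 FPKM, and Rbpms and Thy1 were at 0 in all 4 SC libraries of P0.5.

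Of the 88 members, 11 were listed at 0 in all 24 libraries, 18 more never reached 1 FPKM, and 53 reached 1 FPKM in 2 or more libraries. The genes at 0 throughout were Cct6b, Cct8l1, Dnaja4, Dnajb8, Dnajb13, Dnajc5b, Dnajc5g, Dnajc16, Dnajc22, Hspa1b and Hspb7. The inducible Hsp70 gene Hspa1a was above 0 in a single library (adult retina, 0.144 FPKM); its near-identical copy Hspa1b could share its reads. The small heat shock proteins, which hold unfolding proteins without ATP, never exceeded 2.52 FPKM. Both replicates had 1 FPKM or more for 27 members in P0.5 Cre-positive SC, against 6 at E17.5 and 3 each at the later stages. Cre-negative SC gave 9, 11, 5 and 5 in the order of age, and retina 13, 9, 4 and 9. Replicates often went apart: in adult retina 11 members reached 1 FPKM in replicate 1 and 36 in replicate 2, and at E17.5 24 members of Cre-negative SC reached it in one replicate and were at 0 in the other. The P0.5 groups had no such member.

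**Figure D1:**
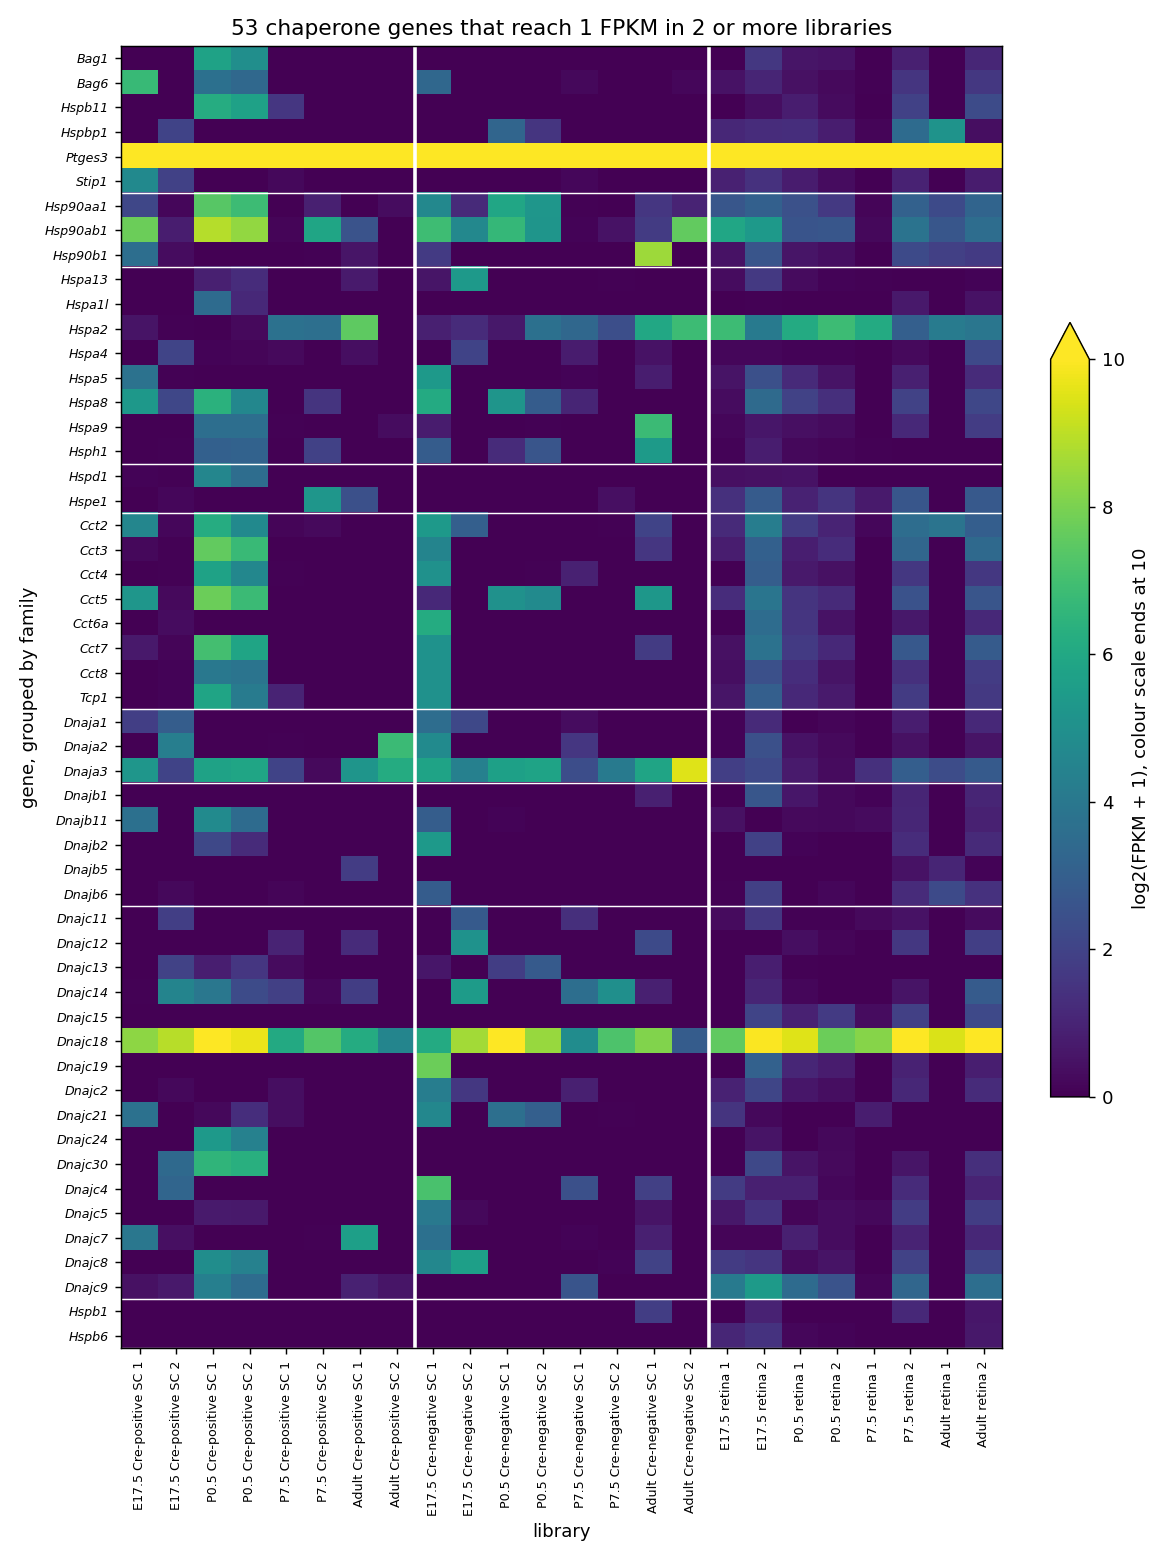
Level of the 53 members that reach 1 FPKM in 2 or more libraries, as log2(FPKM + 1), with genes in rows by family and the 24 libraries in columns, Cre-positive SC at the left, Cre-negative SC in the middle and retina at the right. Ptges3 is high in every library, and the block of Cct genes is bright in both P0.5 Cre-positive SC libraries.

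Ptges3 (ENSMUSG00000071072, chr10:128058954-128077272, plus strand), which encodes p23, was the member with the highest FPKM in 23 of the 24 libraries. In retina its FPKM was 13044 and 12502 at E17.5, 19053 and 18381 at P0.5, 30400 and 5660 at P7.5, and 4706 and 5878 in the adult. In Cre-positive SC it was 1841 and 3286, 1242 and 1220, 7480 and 1844, and 2383 and 4895 at the same stages. Cre-negative SC gave 2859 and 2355, 1497 and 1717, 2316 and 1957, and 3310 and 10547, so that the ranges with and without Cre overlapped at every stage but P0.5, where both Cre-positive values lay below both Cre-negative ones. Ptges3 alone was 37.9% to 98.8% of the summed FPKM of all members in the libraries where it led. It was not called between Cre-positive and Cre-negative SC at any stage, with log2 differences between -0.79 and 0.80 (limma, adjusted p = 1 at each). Ptges3 has a processed pseudogene by annotation, and reads could be shared with it.

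Dnajc18, a J protein of the endoplasmic reticulum membrane, was also above 0 throughout, and it led in P0.5 Cre-positive SC replicate 1. Its FPKM in Cre-positive SC was 311 and 487 at E17.5, 2019 and 837 at P0.5, 67.0 and 160 at P7.5, and 71.1 and 22.5 in the adult. In Cre-negative SC it was 68.5 and 390, 1474 and 355, 27.8 and 146, and 272 and 6.48. The groups overlapped at every stage, and no difference of Cre was called (adjusted p between 0.99 and 1, limma). Dnaja3, a J protein of mitochondria, was the only further member above 0 in all 24 libraries, and at P0.5 it was level between Cre-positive (53.7 and 57.7 FPKM) and Cre-negative SC (50.2 and 55.3 FPKM). Ptges3, Dnajc18 and Dnaja3 were thus present in immunopurified SC without Cre as well.

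**Figure D2:**
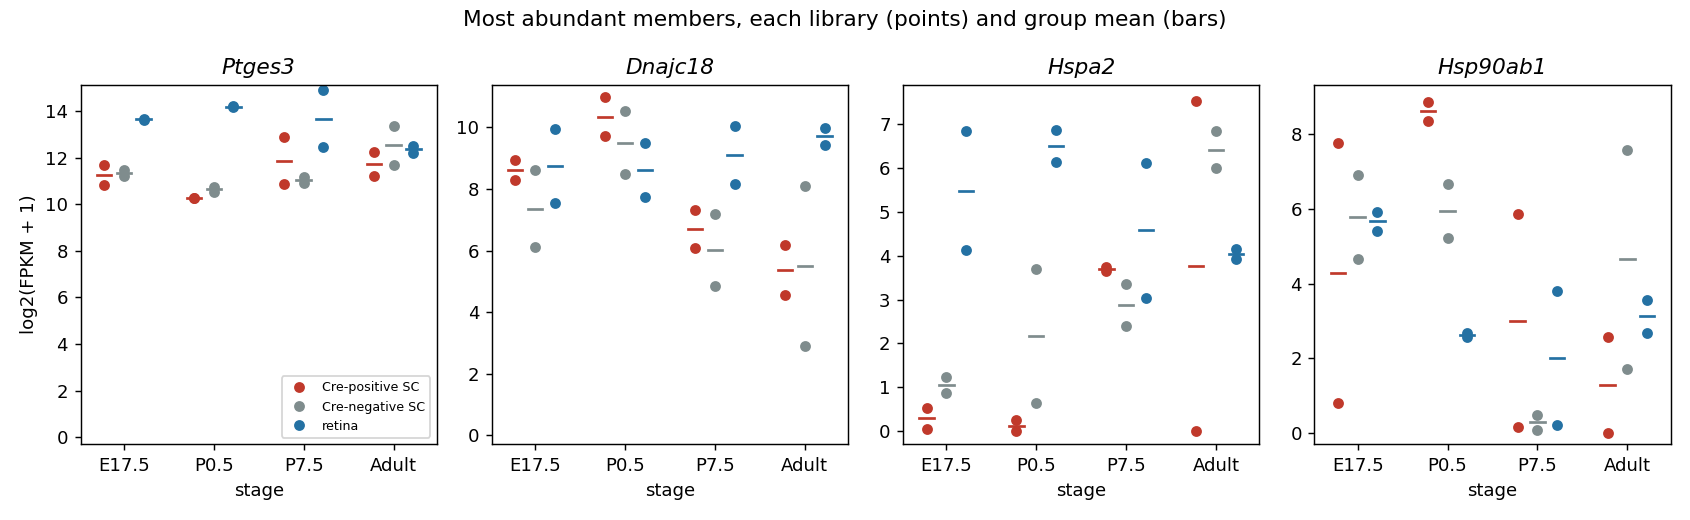
Ptges3, Dnajc18, Hspa2 and Hsp90ab1 as log2(FPKM + 1) against stage, with 1 point for each library and a bar at the mean of the 2 libraries of a group. Ptges3 in retina stands above both SC groups at E17.5 and P0.5, Dnajc18 overlaps between the SC groups at every stage, and Hsp90ab1 is highest in P0.5 Cre-positive SC.

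Setting the SC with Cre against the SC of littermates without it asks which mRNAs were bound to the tagged axonal ribosomes. At P0.5, when RGC axons branch, 15 members were higher in Cre-positive SC and 1 was lower, of 44 tested (34.1% and 2.27%). Among all 5983 genes tested, 28.1% were higher and 4.35% lower, so that the members' share was near that of genes at large. The median log2 difference was 1.51 over the members and 0.78 over all genes tested. The test was limma on log2(FPKM + 1) with Benjamini-Hochberg adjustment over all genes, in a fit of the 16 SC libraries. Differences against a group listed at 0 depend on the pseudocount of 1 and are not folds. The cytosolic chaperonin was the family with the most calls, 6 of 7 tested, followed by the J proteins (5 of 18).

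Each ring of CCT holds a copy of each subunit, and 6 of the 7 subunits tested were higher with Cre at P0.5. Cct3 (ENSMUSG00000001416, chr3:88297116-88321767, plus strand) had 194 and 109 FPKM in Cre-positive SC and 0 in both Cre-negative libraries (log2 difference 7.19 ± 1.20 SE, adjusted p = 0.000843). Cct7 had 129 and 57.0 FPKM against 0 and 0 (6.44 ± 1.34, adjusted p = 0.00354). No Cre-negative value of these subunits came near a Cre-positive one. Cct2 (72.3 and 26.1 FPKM), Tcp1 (55.5 and 17), Cct4 (53.4 and 23.5) and Cct8 (15.2 and 13.4) were likewise called, with log2 differences between 3.93 and 5.48 and Cre-negative values of at most 0.0471 FPKM. Of these 6 subunits, Cct3 alone kept its call in every alternative run, and Cct8 lost it with a pseudocount of 5. Cct4 and Cct8 reached 1 FPKM in 1 other SC library, so they entered the test only through the group where they were high. Cct5 had the highest level of the subunits, 217 and 113 FPKM, but it was also present in Cre-negative SC at 32.5 and 26.4 FPKM, and the difference was not called (2.38 ± 1.78, adjusted p = 0.42). Cct6a was listed at 0 in all 4 of these libraries. As listed, the subunits of the same ring ran from 0 to 217 FPKM within a single library.

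**Figure D3:**
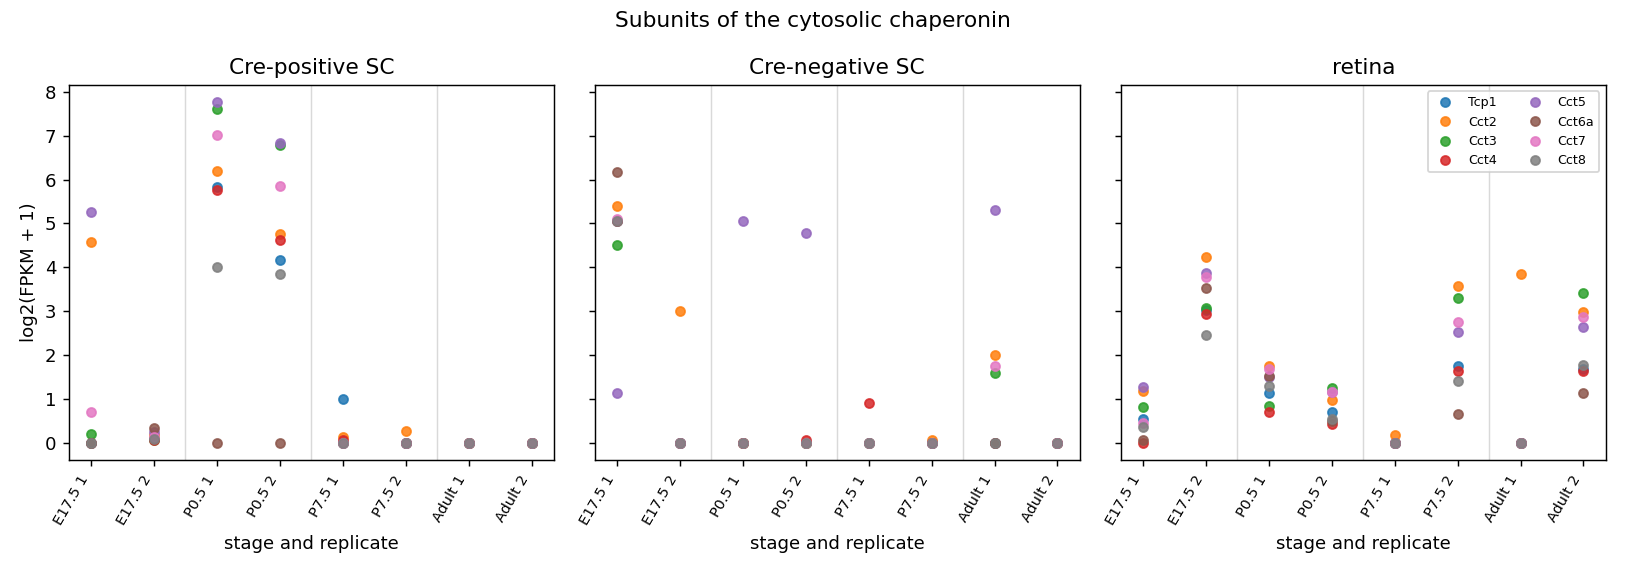
Level of the 8 CCT subunit genes, log2(FPKM + 1), by stage and replicate in SC with Cre (left), SC without Cre (middle) and retina (right), 1 colour for each subunit. At P0.5, 7 of the subunits lie well above 0 in both Cre-positive libraries (13.4 to 217 FPKM) and Cct6a is at 0, while E17.5 replicate 1 is the Cre-negative library that holds all 8 subunits.

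Outside P0.5 the CCT genes were sparse in Cre-positive SC. In E17.5 Cre-positive SC, Cct5 (37.5 FPKM) and Cct2 (23.0 FPKM) were high in replicate 1, and no subunit passed 0.271 FPKM in replicate 2. In E17.5 Cre-negative SC, replicate 1 had 1.22 to 70.9 FPKM for the 8 subunits and replicate 2 had Cct2 alone, at 7.09 FPKM. Replicate 1 is the library with the lowest estimated depth. At P7.5 and in the adult, no subunit passed 1.02 FPKM in Cre-positive SC. In retina the subunits were between 0 and 17.8 FPKM, with replicate 2 above replicate 1 at E17.5.

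The mitochondrial chaperonin split. Hspd1, the chamber, had 23.2 and 10.9 FPKM in P0.5 Cre-positive SC, 0 in both Cre-negative libraries, and at most 0.0601 FPKM in the other SC libraries (4.09 ± 0.40, adjusted p = 1.91e-05). Hspe1, its lid, was listed at 0 in both P0.5 Cre-positive libraries. In P0.5 retina the order was the other way round, with Hspe1 at 0.946 and 1.80 FPKM and Hspd1 at 0.39 and 0. Hspd1 has processed pseudogenes by annotation that could take or give reads. These neighbouring genes of chromosome 1 (Hspd1 from 55077835 to 55088243, Hspe1 from 55088132 to 55091307, GENCODE M21 on GRCm38) are read in opposite directions, and the promoter windows overlap. The stretch they share is shown because the partners differed in level and hold the same element, in RefSeq sequence of GRCm38.p6, with bases of the heat shock element, GAANNTTC or TTCNNGAA, in capitals (3 overlapping matches):
Hspd1, minus strand, chr1:55088053-55088082: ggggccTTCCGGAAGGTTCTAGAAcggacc
Hspe1, plus strand, chr1:55088053-55088082: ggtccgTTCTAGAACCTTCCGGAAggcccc

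Promoters from 250 bases before to 50 after the start were at hand for 73 members. On either strand, the element was found in those of 20 members (27.4%) and of 17% of the 27025 genes with a promoter. It stood in 2 of 13 promoters of members higher at P0.5 (Hspd1 and Cct2) and in 4 of 19 of members tested and not called (Cct5, Dnaja1, Hspe1 and Hsph1). Matches describe letters only. For Cct2 and Cct5, 2 ring subunits of which Cct2 was called and Cct5 was not, the stretches were:
Cct2, minus strand, chr10:117063399-117063428: ccccaagtgaaGAAGTTTCtagcaggacct
Cct5, minus strand, chr15:31601862-31601891: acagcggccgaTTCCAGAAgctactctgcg

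The cytosolic Hsp90 genes were abundant at P0.5 with and without Cre. Hsp90ab1, the constitutive form, had 470 and 330 FPKM in Cre-positive and 101 and 36.2 FPKM in Cre-negative SC (log2 difference 2.68 ± 2.61, adjusted p = 0.61). Hsp90aa1, the inducible form, had 170 and 115 against 58.7 and 36.7 FPKM (1.57 ± 1.17, adjusted p = 0.42). For both genes, each Cre-positive value lay above each Cre-negative one, and neither difference passed the threshold in a fit whose spread comes from all stages. Hspa8, the constitutive Hsp70, had 82.9 and 23.9 FPKM against 36.3 and 6.43 and overlapped. Mitochondrial Hspa9 was at 11.3 and 11.2 FPKM against 0 and 0.0294 and was not called either (3.59 ± 1.58, adjusted p = 0.12). Of 8 Hsp70 genes tested, Hspa1l alone was called higher (10.4 and 1.23 FPKM against 0 and 0; 2.34 ± 0.56, adjusted p = 0.0086). The log2 scale with a pseudocount keeps such a difference small. Hspa1l reached 1 FPKM in 0 other SC libraries, so it entered the test only through the group where it was high. Its call was lost with the groups fitted alone.

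**Figure D4:**
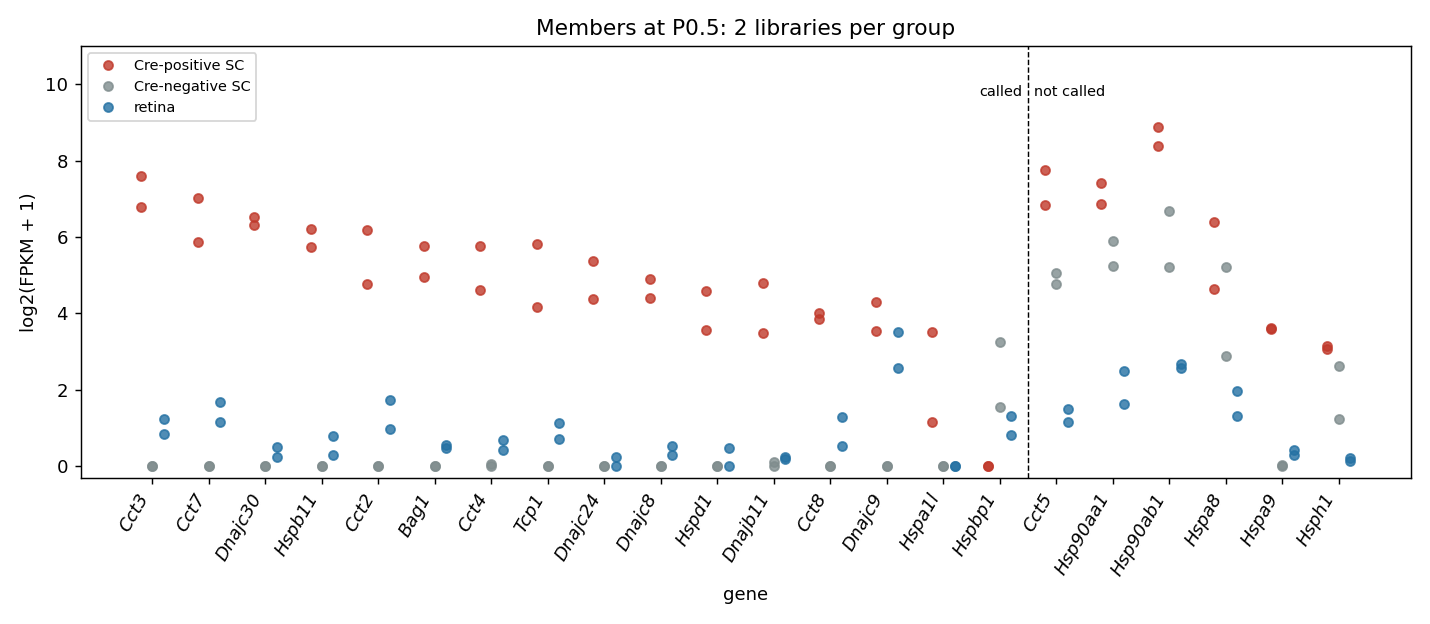
Level at P0.5, log2(FPKM + 1), of the 16 members called between Cre-positive and Cre-negative SC (left of the dashed line) and of 6 heat shock and chaperonin genes that were not called (right), 2 points for each of the 3 groups. For 15 of the called genes both Cre-positive points lie above the Cre-negative points, which sit at or near 0.

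Among J proteins, Dnajc30, which acts at the mitochondrial inner membrane, had 91.5 and 78.0 FPKM against 0 and 0 (6.42 ± 0.90, adjusted p = 0.00025). Dnajc24, which serves the synthesis of diphthamide on elongation factor 2, had 40.5 and 19.8 FPKM against 0 and 0 (4.88 ± 0.42, adjusted p = 1.05e-05). Both genes were at most 9.68 FPKM in the remaining SC libraries. Dnajc8, a spliceosome-associated J protein, was at 28.8 and 20.3 FPKM against 0 and 0 (adjusted p = 0.000753). Dnajc9, which binds histones, was at 18.9 and 10.6 against 0 and 0 (adjusted p = 0.00184), and Dnajb11 of the endoplasmic reticulum at 26.7 and 10.2 against 0.081 and 0 (adjusted p = 0.0213). Of the J proteins known from the synaptic vesicle cycle, Dnajc5 (cysteine string protein) was at 0.633 and 0.587 FPKM, and Dnajc6 (auxilin) was listed at 0 in both Cre-positive libraries. Dnaja1, Dnaja2, Dnajb1 and Dnajb6 were listed at 0 in all 4 SC libraries of P0.5.

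Bag1 and Hspbp1, which act on Hsp70, were called in opposite directions. Bag1 (ENSMUSG00000028416, chr4:40936398-40948294, minus strand), which releases clients from Hsp70, had 53.6 and 29.8 FPKM in P0.5 Cre-positive SC and 0 in every other SC library (5.36 ± 0.43, adjusted p = 8.78e-06). Hspbp1 was listed at 0 in both Cre-positive libraries and had 8.58 and 1.93 FPKM in the Cre-negative ones (-2.41 ± 0.65, adjusted p = 0.0153). The call of Hspbp1 was lost with the filter set on the other SC libraries (adjusted p = 0.0505), and without either Cre-positive replicate or Cre-negative replicate 1. Bag6, which guards exposed membrane segments, was at 11.8 and 9.41 against 0 and 0.0248 FPKM and was not called (adjusted p = 0.17). Hspb11, a subunit of the intraflagellar transport machinery in spite of its symbol, had 72.7 and 52.3 FPKM against 0 and 0 (5.97 ± 0.58, adjusted p = 1.82e-05). Stip1 was listed at 0 in all 4 libraries.

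Of the chaperones of the endoplasmic reticulum (ER), several were at 0 at this stage. Hspa5 (BiP), Hsp90b1 (GRP94), Dnajc3 and Dnajb9 were listed at 0 in all 4 SC libraries of P0.5, with and without Cre, whereas the ER members Dnajc18, Dnajb11 and Dnajc14 (14.8 and 3.90 FPKM) were above 1 FPKM in both Cre-positive libraries. Hspa5 had been at 12.8 and 0.0327 FPKM in E17.5 Cre-positive SC and at 41.1 and 0 in E17.5 Cre-negative SC, so that its replicates did not go together. Hspa5, Hsp90b1 and Dnajc3 were the 3 members (4.11% of 73) whose promoters held the ER stress element, CCAAT and CCACG with 9 bases between them, on either strand, against 0.137% of all promoters. It is shown for the genes with a match, in capitals, because the element set these members apart from most promoters, and not for their level (Hsp90b1 has a second match):
Hspa5, plus strand, chr2:34772020-34772048: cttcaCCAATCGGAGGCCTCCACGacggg
Hsp90b1, minus strand, chr10:86705633-86705661: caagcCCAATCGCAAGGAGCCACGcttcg
Dnajc3, plus strand, chr14:118937822-118937850: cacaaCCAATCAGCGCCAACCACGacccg

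Of the 15 members higher at P0.5, 9 reached 1 FPKM in fewer than 2 of the other SC libraries, so they entered the test only through the group where they were high, as did 1068 of the 1684 genes called higher. With the filter set on the other SC libraries alone, an alternative chosen after seeing the data, 6 of 32 members were higher and 0 lower. Without Cre-positive replicate 1, 3 members were called, without Cre-positive replicate 2, 9, and without Cre-negative replicate 1 or 2, 9 and 10. Cct3 was called in all 12 alternatives, this filter included. Bag1, Dnajc24, Dnajc30, Hspb11 and Hspd1 were called in the 8 or 10 alternatives that tested them, but this filter removed them from the test, since they reached 1 FPKM in 0 or 1 of the other SC libraries. Beside these values, the summed FPKM of 6 astrocyte markers was 47.9 and 36.2 in P0.5 Cre-positive and 5.77 and 10.6 in Cre-negative SC, with Aldh1l1 called higher and Gfap, Aqp4 and S100b at 0. Of the 10 RGC markers Slc17a6 was called higher, and the list summed to 300.2 and 110.3 FPKM against 758 and 199.9. Pou4f1 made up most of each sum, with 230.5 and 86.0 FPKM against 704.5 and 191.1. Pou4f2 was lower with Cre as well (10.05 and 1.56 FPKM against 48.2 and 5.82). Nefl went the other way (47.5 and 17.54 against 4.22 and 2.82) and so did Slc17a6 (12.2 and 5.13 against 1.46 and 0.223). The 4 microglial markers were at 0. The part of other cells in the calls was not tested.

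At the other stages few members were called between SC with and without Cre. At E17.5, Stip1 was higher in Cre-positive SC (26.0 and 2.83 FPKM against 0 and 0; 3.34 ± 0.69, adjusted p = 0.041) and Dnajc8 lower (0 and 0 against 23.8 and 49.6 FPKM; -5.15 ± 0.77, adjusted p = 0.0069), against 0.468% of genes higher and 1.1% lower. Dnajc8 was thus called in opposite directions at E17.5 and P0.5. Neither call was kept with the replicate block, the groups fitted alone or a filter at 4 libraries. Each of these left 0 calls, and Stip1 alone was lost with a pseudocount of 5 (adjusted p = 0.22). Stip1 was at or near 0 in every other SC group, so it entered the test only through the group where it was high. Without E17.5 Cre-negative replicate 2, 10 members were called. At P7.5, limma called 0 members, 0 passed an unadjusted p of 0.05, NOISeq's rule called 0, 1 was called without P7.5 Cre-positive replicate 1, and 0% of all genes were called in either direction. In the adult, limma again called 0 members, with 0 past an unadjusted p of 0.05, while NOISeq's rule called 3, 2 were called without adult Cre-negative replicate 2, and 0.0836% of genes were higher and 0.0669% lower. Adult Cre-negative SC held single high values, such as Hsp90b1 at 374 and 0 FPKM, Hspa9 at 113 and 0, and Dnaja3 at 56.4 and 738.

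Between stages, most members called in Cre-positive SC rose to P0.5 and fell after it. From E17.5 to P0.5, 14 members were higher and 2 lower, with 25.1% and 1.81% of all genes. From P0.5 to P7.5, 18 were lower and 0 higher (40.9% of 44), with 29.2% and 0.501% of all genes. Bag1, Cct4, Cct8, Dnajc24, Dnajc30, Dnajc9, Hspa1l, Hspb11 and Hspd1, called in both steps, entered the test only through P0.5 Cre-positive SC. For these genes, a rise to that group and a fall from it were largely set by the filter. With the filter set on the other SC libraries alone, both steps called fewer members. Hsp90aa1 was called in both steps, from 3.34 and 0.115 FPKM at E17.5 (log2 difference 6.00 ± 1.17, adjusted p = 0.00263) and to 0 and 0.858 FPKM at P7.5 (-6.69 ± 1.17, adjusted p = 0.00124). Without Cre, Hsp90aa1 was at 58.7 and 36.7 FPKM at P0.5, and neither step differed with Cre at the threshold. The interactions of Hsp90aa1 with Cre were 3.38 ± 1.66 (limma, adjusted p = 0.18) and -1.16 ± 1.66 (adjusted p = 0.80). Cct2, Cct5, Dnajb11 and Dnaja3 passed the threshold in the second step and not in the first, and whether the size of the steps differed was not tested. For none of them did the second step differ with Cre at the threshold. Their interactions were -5.31, -2.38, -4.09 and -2.17 in that order (limma, adjusted p = 0.082, 0.67, 0.12 and 0.61). Without P0.5 Cre-positive replicate 1 the steps called 2 and 3 members, and without replicate 2 they called 9 and 9. Stip1 (26.0 and 2.83 to 0 and 0 FPKM) and Dnaja1, a partner of Hspa8 (2.61 and 6.74 to 0 and 0 FPKM), were the members that fell from E17.5 to P0.5. For Stip1 this step repeats its E17.5 Cre-positive value. For Dnaja1 the step did not differ with Cre at the threshold (interaction 0.47 ± 0.78, limma, adjusted p = 0.78). From P7.5 to the adult limma called 0 members, 1 passed an unadjusted p of 0.05, and 0.0836% and 0% of genes were called. These steps and the comparisons of Cre share the P0.5 Cre-positive libraries, so they are not independent of each other. Between stages, more axons in the tissue and more bound mRNA per axon cannot be told apart.

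Whether the step differed with Cre was tested as an interaction. For members at 0 in the other SC groups, such as Bag1 and Dnajc24, it only repeats the P0.5 Cre-positive value. From E17.5 to P0.5 it was called for 13 members upwards and 2 downwards, with 23.9% and 3.23% of all genes. Dnajc8 had the largest value of these (9.80 ± 1.09, adjusted p = 0.000226), from the opposite differences above, and Stip1 and Hspbp1 were those below 0. For Stip1 the interaction repeats the E17.5 Cre-positive value. From P0.5 to P7.5 it was called for 10 members downwards and 0 upwards, with 18.7% and 2.74% of genes. With the filter set on the other SC libraries, the first was called for 5 of 32 members and the second for 0. Without P0.5 Cre-positive replicate 1 these interactions were called for 3 and 0 members, without replicate 2 for 6 and 3, and without P0.5 Cre-negative replicate 1 the first was called for 9. From P7.5 to the adult limma called 0 members, with 0 past an unadjusted p of 0.05 and 1 called without adult Cre-negative replicate 2, and 0% of genes either way.

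In retina, no change between stages was called for the 38 members tested. The 3 steps gave 0 calls by limma and 0 members past an unadjusted p of 0.05, with 0% and 0%, 0.0245% and 0.049%, and 0% and 0% of genes higher and lower. Dnajc9 was among the highest J proteins in retina, at 16.1 and 42.2 FPKM at E17.5 and 10.4 and 4.93 at P0.5. Hspa2, an Hsp70 known from male germ cells, had 115 and 16.4 FPKM at E17.5, 69.1 and 116 at P0.5, 68.5 and 7.21 at P7.5, and 16.8 and 14.2 in the adult. It was present in retina in every library, in contrast to SC, where it was 0 to 183 FPKM.

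Against retina, P0.5 axons had 18 members higher and 2 lower of 52 tested (34.6% and 3.85%), beside 32.7% and 2.01% of 6321 genes. The median log2 difference was 1.04 over the members and 1.10 over all genes. With median-ratio scaling, which scales each library by the genes above 0 in most libraries of the fit, 10 members were higher and 2 lower. Without P0.5 Cre-positive replicate 1, 8 members were called, and without retina replicate 2, 13. CCT gave 6 of the 18, with Cct3 at 0.786 and 1.38 FPKM in retina (6.15 ± 1.32, adjusted p = 0.00336) and Cct5 at 1.85 and 1.25 FPKM (5.96 ± 1.61, adjusted p = 0.013). Hsp90aa1 (4.61 and 2.12 FPKM in retina; 5.07 ± 1.15, adjusted p = 0.00444), Hspa9 (3.26 ± 0.62, adjusted p = 0.00146) and Hsph1, which recharges Hsp70 (2.93 ± 0.57, adjusted p = 0.00173), were higher in axons. Ptges3 was lower in Cre-positive SC than in retina (-3.93 ± 0.81, limma, adjusted p = 0.00275) and so was Hspa2 (0 and 0.188 FPKM; -6.38 ± 1.99, adjusted p = 0.0271). Cre-negative SC held Ptges3 at 1497 and 1717 FPKM, so its axonal and background parts in SC cannot be told apart. The same Cre-positive libraries entered the comparison with retina and that with Cre-negative SC. Of the members called higher than in retina, 5 were not called against Cre-negative SC. These were Dnaja3, level with it, Hsp90aa1 (58.7 and 36.7 FPKM there), Cct5 (32.5 and 26.4), Hsph1 (1.34 and 5.196) and Hspa9 (0 and 0.0294). At E17.5 limma called 0 members and 8 passed an unadjusted p of 0.05 (0.57% and 0.744% of genes called), with 5 called without Cre-positive replicate 2 and 3 without retina replicate 1. At P7.5 limma called 0 members and 2 passed the unadjusted p (0.0158% and 0% of genes called), and in the adult it called 0 and 4 passed (0.0949% and 0%).

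The other genes of the pathway were followed from a list of 58 (heat shock factors, co-chaperones of Hsp90 and Hsp70, prefoldin, tubulin cofactors, ER folding enzymes and mitochondrial proteases), of which 57 were in the files. At P0.5, 10 of 35 tested were higher and 1 lower in Cre-positive than in Cre-negative SC, and 12 of 41 higher and 1 lower than in retina. The shares higher, 28.6% and 29.3%, were near those of all genes in these comparisons (28.1% and 32.7%). Hsf1, the heat shock factor, had 7.68 and 3.52 FPKM against 0 and 0 (2.65 ± 0.32, adjusted p = 8.05e-05). Sil1, the exchange factor of BiP, had 26.3 and 18.9 FPKM against 0 and 0 (limma, adjusted p = 8.78e-06), and Ahsa1, which activates Hsp90, 46.7 and 29.9 against 0 and 0 (adjusted p = 0.000201). Hsf1, Sil1, Ahsa1, Ahsa2, Bag4, Clpb, Ppid and St13 reached 1 FPKM in at most 1 other SC library. They entered the test only through the group where they were high. The count for this list was not repeated with the filter set on the other SC libraries. The prefoldin subunit Vbp1, which passes clients to CCT, was the gene that was lower, at 0 and 0 against 167 and 54.9 FPKM (-6.60 ± 1.86, adjusted p = 0.0196). Of 7 ER folding genes tested, Calr (calreticulin) was called, at 134 and 121 against 0 and 0.0477 FPKM (adjusted p = 0.0446).

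In a run-off, translating ribosomes are left to finish while new initiation is stopped, and the comparison asks how much of the immunopurified mRNA was lost with them. With 1 library of each kind there is no replicate check, and intervals cover counting error only, since amplified reads are not independent molecules. The run-off experiment had no Cre-negative SC, so reads lost in SC from tagged ribosomes and from background cannot be told apart. The adult SC libraries held 3262914 reads on genes without and 349395 with run-off (10.7%), and the retina libraries 4686284 and 315009 (6.72%). In SC, 37 of the 42 members with a read had fewer with run-off (88.1%), beside 84.9% of all genes, and 26 had none left (61.9%), beside 52.9%. In retina it was 63 of 67 (94.0%), beside 92.1%, and 38 had none left (56.7%), beside 60.5%.

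Ptges3 carried the most reads, 12194 without and 445 with run-off in SC (3.65%, exact interval 3.31 to 4.01), and 42185 and 2188 in retina (5.19%, 4.97 to 5.41). Both ratios lay below the ratio of the library totals. Dnajc18 kept 51 of 1904 reads in SC and 46 of 2697 in retina. Of the 17 members with 100 or more reads in SC without run-off, Hsp90ab1 (230 of 299 reads, 76.9%, 64.5 to 91.7) and Dnaja3 (721 of 2219, 32.5%, 29.8 to 35.4) kept the largest shares. Dnajb2, a J protein of neurons, kept 1 of 756 reads. Of the 17 members, 10 kept none (58.8%), beside 44.1% of the 2389 genes with 100 or more reads. These were Cct5 (0 of 424, at most 0.874%), Dnajc6 (of 407), Dnajc13 (of 336), Dnajc5 (of 299), Hspa12b (of 245), Hspb8 (of 177), Hsph1 (of 149), Hsp90aa1 (of 140), Cct8 (of 119) and Hspa8 (of 110).

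Few members had more reads with run-off. Bag6 had 1 read without and 273 with run-off in SC, and Hspbp1 91 and 178 (196%, 151 to 255). Dnajc14 had 0 and 40 in SC, and in retina Dnajc2 had 4 and 23 (575%, 196 to 2287), Dnajc13 0 and 21, and Cct2 61 and 88 (144%, 103 to 203). Dnajc13 had thus lost its reads in SC and had reads in retina with run-off alone. In retina, Cct3 kept 139 of 163 reads (85.3%, 67.5 to 108) and Hsp90ab1 121 of 449 (26.9%, 21.9 to 33.0), next to Hspb6 (46 of 167) and Hspa9 (52 of 190). Cct6a and Cct8, with 242 reads each in retina, kept none. Subunits of the same CCT ring thus had from 0% to 144% of their reads left in the same retina libraries. The adult libraries also differed between experiments: of 70 members listed at 0 FPKM in both adult Cre-positive SC libraries, 30 had a read in SC without run-off and 12 had 100 or more, led by Dnajb2, Cct5 and Dnajc6.

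**Figure D5:**
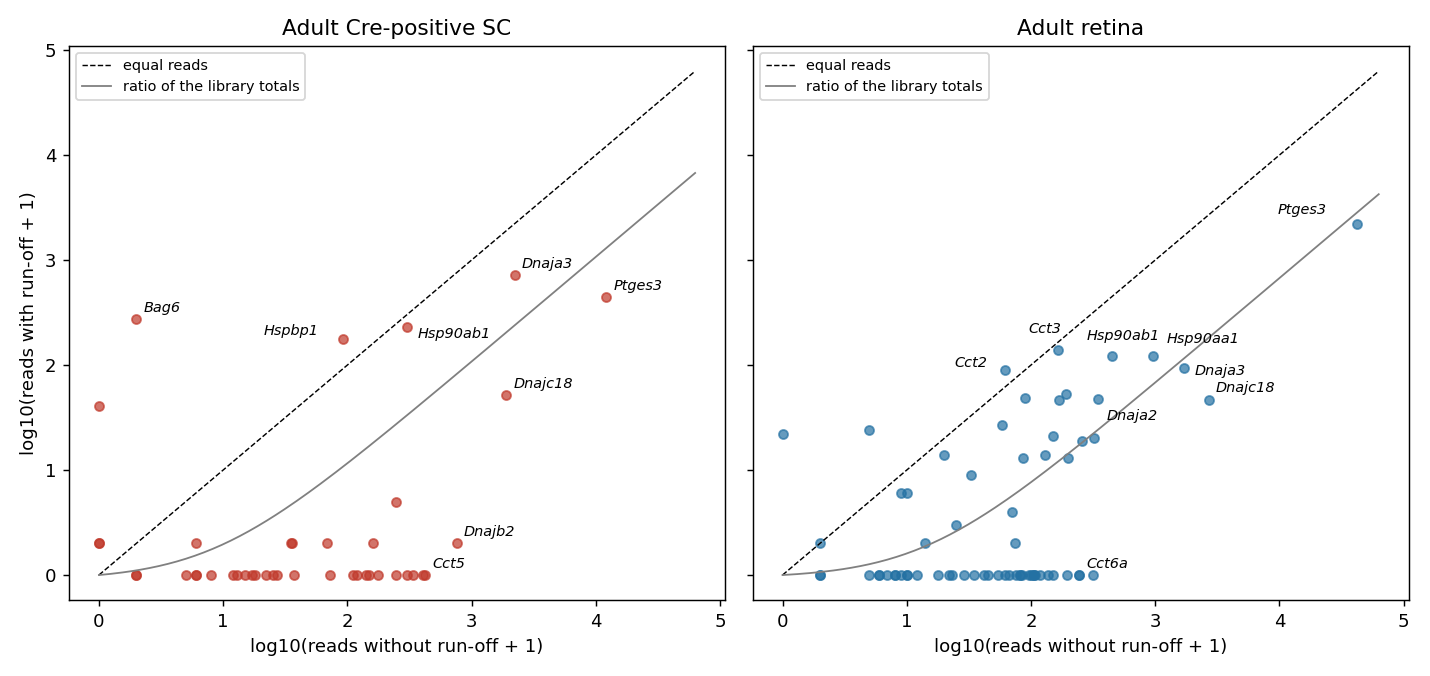
Reads of each member with run-off against reads without, log10(reads + 1), for adult Cre-positive SC (left) and adult retina (right), 1 point for each member with a read in either library. The dashed line marks equal reads and the grey line the ratio of the library totals; Bag6 and Hspbp1 lie above the dashed line in SC, and most points lie on the axis at 0 or below the dashed line.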

How the data were processed

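Ribosome-bound mRNA of 24 axon-TRAP libraries and 4 run-off libraries was analysed, grouped by the sample labels. The authors amplified cDNA by PCR and, per the labels, mapped reads with TopHat2 2.0.12 to mm10. The values deposited for the 24 libraries are FPKM, computed by the authors with Cufflinks 2.2.1, and the deposited run-off values are raw counts of reads on genes from HTSeq 0.6.1p1. Amplification and estimated depth limit low values.

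Genes with at least 1 FPKM in 2 libraries of a fit were compared on log2(FPKM + 1) with limma 3.58.1 (mean-variance trend, robust moderation; statmod 1.5.0, R 4.3.3), over 16 SC libraries, 8 retina libraries, or 16 Cre-positive SC and retina libraries. P-values are two-sided, adjusted by Benjamini and Hochberg over all genes, with a threshold of 0.05. The fit was tested on simulated data. Whether replicates came from separate litters is not given in the sources used here, so p-values measure the spread between these libraries.

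Depth was estimated from genes with 1 transcript in GENCODE M21, taking the 5th percentile of FPKM times length as 1 fragment. This estimate rests on no stated total. Run-off ratios carry exact (Clopper-Pearson) 95% intervals. Python 3.11.15, numpy 2.4.6, pandas 2.3.3 and scipy 1.17.1 were used. Promoters are from RefSeq (GRCm38.p6, 73 of 88 members matched). Alternatives were pseudocounts of 0.1 and 5, other filters (one chosen after seeing the data), median-ratio scaling, a replicate block, smaller fits, libraries left out, and NOISeq's rule (probability above 0.7).

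The members, lists and tests were chosen with earlier results of these data known. Named are core chaperones, the 5 members with the smallest p per direction and comparison, the 5 most abundant of each group, members at 0 throughout, and in run-off members with 100 or more reads without run-off and the 5 largest and 5 smallest ratios. Others that illustrate a family or a contrast in level (such as Dnajc3, Dnajc9, Dnajc14 and Dnajb9, Hspbp1 and Bag6 in run-off, and the pathway genes) were picked after their values were seen. Protein sequences were not used here.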

Additional observations from a re-analysis of the deposited data

Results flagged for a closer look

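The change of 15 members from E17.5 to P0.5 differed between Cre-positive and Cre-negative SC, as an interaction in limma on log2(FPKM + 1) with adjusted p under the threshold. These were 13 higher and 2 lower of 44 tested, beside 23.9% and 3.23% of all genes, and 5 of 32 were called with the filter set on the libraries outside P0.5 Cre-positive SC. The interaction was 9.80 for Dnajc8, 9.32 for Cct3, 8.57 for Cct7, 7.66 for Cct4, 7.48 for Tcp1, 7.31 for Cct2 and 6.41 for Cct8. It was 5.97 for Hspb11, 5.36 for Bag1, 4.88 for Dnajc24, 4.71 for Dnajc30, 4.02 for Hspd1 and 3.37 for Dnajc9, and below 0 for Hspbp1 (-3.42) and Stip1 (-3.34). For Stip1 it repeats the E17.5 Cre-positive value. For the CCT subunits it adds the Cre-negative values of E17.5 replicate 1 to the Cre-positive values of P0.5. The interaction was also fitted without that library, and which members kept their call is not given here. Without P0.5 Cre-positive replicate 1 or 2, 3 and 6 were called, and without P0.5 Cre-negative replicate 1, 9 were.

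From P0.5 to P7.5 the interaction was called for 10 members of 44, all downwards, beside 18.7% of all genes, and for 0 with the filter set on the libraries outside P0.5 Cre-positive SC. For members at 0 in the other SC groups, such as Bag1 and Dnajc24, it only repeats the P0.5 Cre-positive value. The interaction was -7.19 for Cct3, -6.44 for Cct7, -6.42 for Dnajc30, -5.58 for Cct4, -5.36 for Bag1, -5.23 for Dnajc9, -5.19 for Hspb11, -4.88 for Dnajc24, -4.71 for Dnajc8 and -4.09 for Hspd1. Without P0.5 Cre-positive replicate 1 it was called for 0 members, and without replicate 2 for 3. Both interactions share the P0.5 libraries. What lies behind the differences was not tested.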

How the results depend on the processing

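Of 97 differences called for single members, 34 kept their call in every alternative run. Of 1117 alternative values 903 kept their side of the threshold, 214 did not (147 of them with a library left out), and 0 turned in direction. An alternative whose filter removed a gene was not counted for that gene, so such a call still counts as kept. Differences against a group listed at 0 had little room to turn in direction. With 1 library left out, the other library of its group is assumed to vary like the other groups.

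For Cre at E17.5, 2 members were called. A pseudocount of 5 and no filter each gave 1. The filter at 4 libraries, the replicate block and the groups fitted alone each gave 0, NOISeq's rule gave 6, and leaving out a library gave 2 to 10. For Cre at P0.5 the 16 calls became 6 with the filter at 4 libraries and 6 with the filter on libraries outside P0.5 Cre-positive SC, a filter added after seeing the data, which takes fewer genes into the test. Leaving out a library gave 3 to 10. For Cre in the adult NOISeq's rule gave 3 in place of 0, and leaving out a library gave 0 to 2, as against 0 to 1 at P7.5.

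From E17.5 to P0.5 both of these filters gave 6 in place of 16 (2 to 18 with a library left out), and from P0.5 to P7.5 both gave 8 in place of 18 (3 to 14). The interaction over the first step went from 15 to 5 with both filters and to 8 with the groups fitted alone (3 to 19). Over the second step it went from 10 to 0 with both filters and to 21 with the groups fitted alone (0 to 9), and over the last step leaving out a library gave 0 to 1. Axons against retina at E17.5 gave 1 in place of 0 with a pseudocount of 5, no filter or median-ratio scaling (0 to 5), and at P0.5 12 in place of 20 with median-ratio scaling (8 to 17). The retina steps, axons from P7.5 to the adult, and axons against retina at P7.5 and in the adult stayed at 0 in the alternatives run. Apart from the alternatives' own construction, the cause was not tested.

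The differences of same-numbered replicates correlated between Cre-positive and Cre-negative SC by 0.417, 0.426, 0.324 and 0.0595 from E17.5 to the adult, and between Cre-positive SC and retina by 0.126, 0.4, 0.346 and -0.0299, so that not every stage passed 0.1. No label ties a number to a litter, so the main fits have no block, and a pairing at the earlier stages was not excluded. With the block, the adjusted p at E17.5 was 0.0565 for Dnajc8 and 0.131 for Stip1. With the replicate block, 18 members were called for Cre at P0.5, 16 and 19 for the steps to and from P0.5, 16 and 10 for their interactions and 21 for axons against retina at P0.5.

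The share of members with fewer reads after run-off was 96.15% in SC and 97.87% in retina at 20 or more reads, 100% in both at 100 or more reads, and 67.16% in retina in CPM. All genes gave 97.2%, 98.3%, 99.2% and 99.9% at these limits, and raw reads fall for most genes where the totals are 10.7% and 6.72%. In CPM at 100 or more reads, 88.2% of members in SC and 62.5% in retina fell, beside 79.9% and 57.8% of all genes. Low values are limited by depth, most of all in the adult SC libraries and in E17.5 Cre-negative replicate 1.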
